A study of Mus musculus with 9 samples.

Results

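The genes described here are 6 matrix metalloproteinase genes, Mmp2, Mmp3, Mmp9, Mmp10, Mmp13 and Mmp14, and 3 genes of their tissue inhibitors, Timp1, Timp2 and Timp3. They were chosen by name, and all 9 were found among the 19935 genes measured, each on 1 probe set that names no other gene. Messenger RNA was measured on 9 Affymetrix Mouse Gene 1.0 ST arrays. The cells were NIH 3T3, an established line of mouse fibroblasts. Of the 3 groups, the first stably expressed an shRNA against Net (gene Elk3) and the next an shRNA against Sap-1 (gene Elk4). The control group stably carried the pLKO.1 vector. Each group held 3 biological replicates with 1 array each. All cells attached to fibronectin for 2 hours, were starved of serum overnight and were then given bovine serum, with lysis after 1 hour. Its strength is 10% by the protocols of the samples but 20% by the design text of the series, and no array without serum was analysed here. Whether the replicates of a group come from 1 transduced line or several is not stated, so p-values measure the spread between these arrays and do not cover differences between independently made lines.

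Matrix metalloproteinases (MMPs) are zinc-dependent enzymes that are made as inactive proenzymes and, once their propeptide is removed, cut collagens, laminins, proteoglycans and other proteins outside the cell. Tissue inhibitors of metalloproteinases (TIMPs) bind the active site and block them. TIMP-2 also takes part in the activation of proMMP-2 at the cell surface by the membrane-bound enzyme MMP-14. Fibroblasts make MMP-2 and MMP-14 constitutively, whereas MMP-3, MMP-9, MMP-10 and MMP-13 are known as inducible by cytokines and growth factors through AP-1, ETS and NF-kB sites. Net and Sap-1 are, like Elk-1, ternary complex factors, which carry an ETS DNA-binding domain and act with serum response factor (SRF) at serum-responsive promoters.

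RefSeq promoter windows of assembly GRCm38.p6 were matched to 7 of the 9 genes, and stretches of 6 of them are shown. Mmp2 and Mmp9 had no window in the sources used here, so their promoters were not searched. The 3 stretches below come from the inducible genes of the MMP cluster on chromosome 9 and show their AP-1 motif (TGANTCA, a palindrome searched on both strands) in capitals, each running 5′ to 3′ on the gene's own strand, plus in all 3.
Mmp3, chr9:7445746-7445812: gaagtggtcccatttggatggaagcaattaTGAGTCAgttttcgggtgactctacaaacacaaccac
Mmp10, chr9:7502249-7502315: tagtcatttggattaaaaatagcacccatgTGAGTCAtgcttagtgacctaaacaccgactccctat
Mmp13, chr9:7272449-7272513: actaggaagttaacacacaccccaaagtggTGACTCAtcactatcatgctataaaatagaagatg
Each of these genes held 1 AP-1 motif in the 250 bases before its start, at -46 in Mmp3, -63 in Mmp10 and -35 in Mmp13. Of all 32851 RefSeq windows of that length, 6.75% held it, and those of Mmp14, Timp1, Timp2 and Timp3 did not. A match describes the letters only and does not show that a factor binds there.

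The TIMP genes were the members that moved apart from each other, and the 200 bases before each start are shown with the ETS core (GGAA, both strands) in capitals.
Timp1, chrX:20869966-20870165, plus strand: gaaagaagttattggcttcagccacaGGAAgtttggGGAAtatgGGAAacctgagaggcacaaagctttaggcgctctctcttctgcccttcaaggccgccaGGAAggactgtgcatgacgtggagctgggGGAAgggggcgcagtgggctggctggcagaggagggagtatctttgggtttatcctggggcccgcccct
Timp2, chr11:118355412-118355611, minus strand: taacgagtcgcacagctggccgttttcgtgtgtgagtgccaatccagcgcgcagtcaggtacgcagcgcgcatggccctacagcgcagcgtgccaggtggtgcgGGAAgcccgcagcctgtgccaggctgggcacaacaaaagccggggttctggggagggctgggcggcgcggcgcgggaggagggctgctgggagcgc
Timp3, chr10:86300212-86300411, plus strand: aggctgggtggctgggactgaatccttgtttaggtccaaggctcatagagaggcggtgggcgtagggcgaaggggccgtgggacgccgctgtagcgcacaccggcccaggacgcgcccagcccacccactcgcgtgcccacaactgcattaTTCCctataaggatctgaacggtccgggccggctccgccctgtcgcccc
In the 250 bases before the start the ETS core occurred 6 times in Timp1, 2 times in Timp2 and 3 times in Timp3, but 93.4% of all windows held at least 1. The SRF motif known as the CArG box, which 1.47% of windows held, was in none of the 7 member windows. These do not include Mmp2 and Mmp9, the MMP members that were called. Timp1 also held, just after its annotated start, the variant AP-1 letters TGAGTAA beside an ETS core, a pair chosen for display after the sequence was seen.
Timp1, chrX:20870190-20870215, plus strand: gaTGAGTAAtgcgtccaGGAAgcctg
The letters TGAGTAA were in 2.68% of all windows of 300 bases, which reach 50 bases past the start.

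Before the members, the targeted genes and the cell type were checked. Elk3 fell by 0.42 on the log2 scale in Net shRNA cells (SE 0.04, limma adjusted p = 1.1e-05). Elk4 fell by 1.54 with the Sap-1 shRNA (adjusted p = 9.2e-10) and also fell by 0.44 with the Net shRNA (adjusted p = 2.3e-05). Elk3 in turn fell by 0.12 with the Sap-1 shRNA (adjusted p = 0.023), a call lost with arrays centred on their median (adjusted p = 0.059) and without control replicate 2 or 3 or Sap-1 shRNA replicate 1 (adjusted p = 0.064 to 0.071). Of 9 fibroblast markers 8 lay above the median level of all genes, Fap being the exception. Their list averaged 11.76 to 11.81 on the Net shRNA arrays, 11.55 to 11.57 on the Sap-1 shRNA arrays and 11.83 to 11.86 on the control arrays. Of these markers none rose, while 3 fell under the Net shRNA and 4 under the Sap-1 shRNA, beside 10.2% and 13.9% of all genes lower. Among genes above the median level, 40.6% and 49.2% were called in either direction. Pdgfra, a platelet-derived growth factor receptor gene, fell by 1.74 under the Sap-1 shRNA, and the other 3 fell by 0.13 to 0.32. The 9 endothelial markers averaged 7.06 to 7.15 on Net shRNA, 6.98 to 7.00 on Sap-1 shRNA and 6.81 to 6.86 on control arrays. Among them Tek rose by 1.84 and Emcn by 0.27 under the Net shRNA, and under the Sap-1 shRNA Cdh5 rose by 0.84 and Emcn by 0.89 while Tek fell by 0.30. Of 8 epithelial markers 2 rose under the Net shRNA and 1 under the Sap-1 shRNA. Of 8 measured osteoblast and chondrocyte markers 2 rose under the Net shRNA and 1 fell under the Sap-1 shRNA. Over all genes 13.4% rose under the Net shRNA, and 15.8% rose and 13.9% fell under the Sap-1 shRNA. These markers were named after their values were seen, and their part in the members' results was not tested. Arrays of a group correlated at 0.99807 to 0.99917 over all probe sets.

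Mmp9 changed most among the 9 genes, rising in Net shRNA cells and falling in Sap-1 shRNA cells, and Mmp2 followed it on a smaller scale. Timp1 fell in Sap-1 shRNA cells while Timp2 and Timp3 rose there. Mmp14 and the chromosome 9 genes Mmp3, Mmp10 and Mmp13 passed the test in no comparison. A gene was called at a limma p under 0.05 after Benjamini-Hochberg adjustment over all genes. In Net shRNA against control cells 2 members rose and none fell, against 23.6% of all genes called. In Sap-1 shRNA against control cells 2 rose and 3 fell, against 29.7% of all genes. Between both shRNAs 3 were higher in Net shRNA cells and 2 lower, against 27.5%. Among genes above the median level, which include 6 of the 9 members, the shares called were 40.6%, 49.2% and 46.1%. All called members were among those 6, so the higher shares are the closer background.

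**Figure D1:**
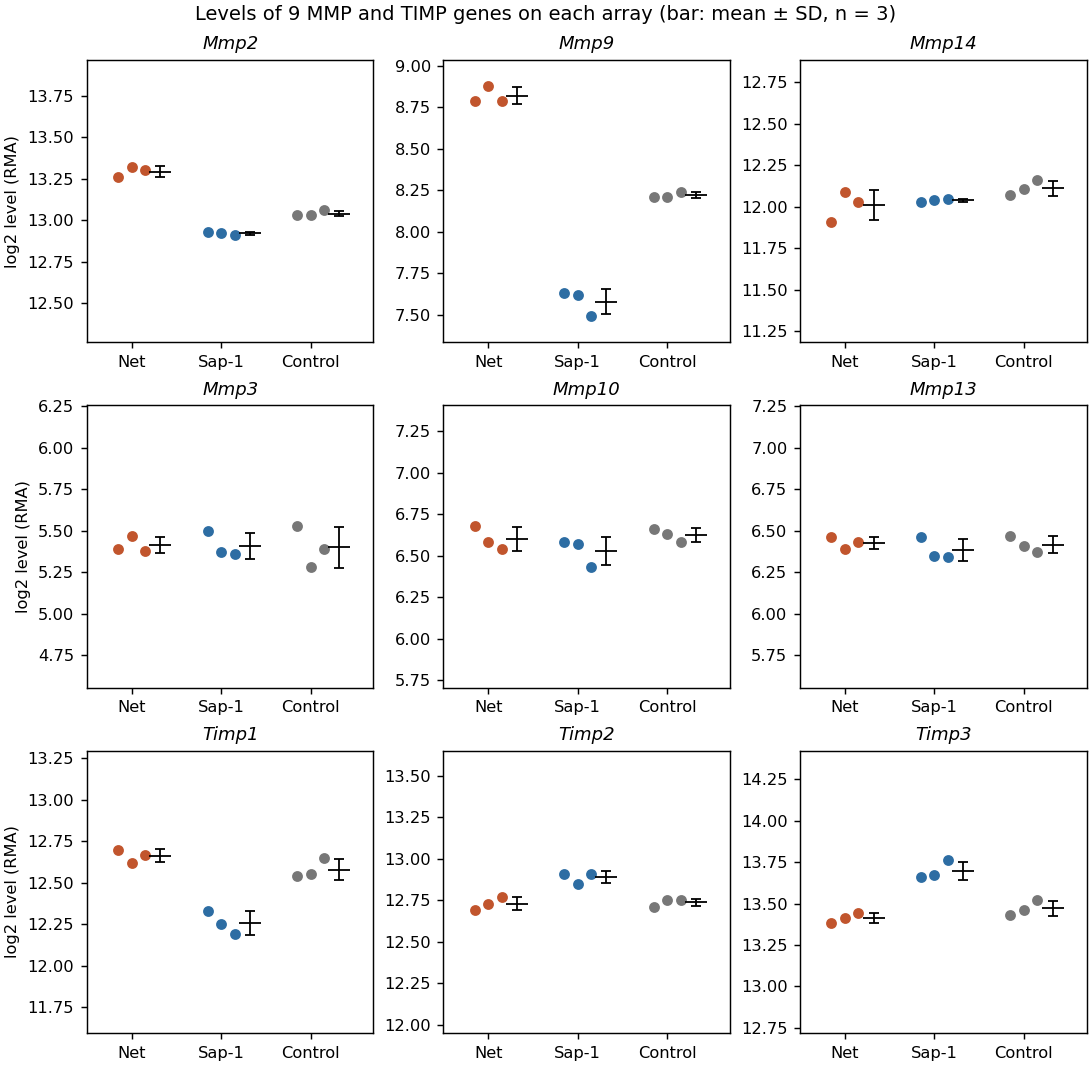
Log2 RMA level (vertical axes, each spanning the same 1.7 log2 units) of the 9 genes on every array, points by group, with the mean ± SD of 3 arrays beside them. Net shRNA and Sap-1 shRNA arrays lie on opposite sides of the control arrays for Mmp9 and Mmp2, and Sap-1 shRNA arrays stand apart for Timp1, Timp2 and Timp3.

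The gelatinases MMP-2 and MMP-9 cut denatured collagens and basement membrane collagen IV. Mmp9 levels were 8.79, 8.88 and 8.79 on the Net shRNA arrays, 7.63, 7.62 and 7.49 on the Sap-1 shRNA arrays and 8.21, 8.21 and 8.24 on the control arrays, on the log2 scale. The 3 groups did not overlap, with Net shRNA arrays highest and Sap-1 shRNA arrays lowest. In Net shRNA cells Mmp9 was 1.52-fold higher than in control cells (log2 change 0.60, SE 0.05, 95% interval 0.49 to 0.70, limma adjusted p = 6.1e-06). In Sap-1 shRNA cells it fell by 35.8% relative to control (log2 change -0.64, SE 0.05, interval -0.74 to -0.54, adjusted p = 1.9e-06). Tested directly, Net shRNA cells had 2.36-fold more Mmp9 mRNA than Sap-1 shRNA cells (log2 change 1.24, SE 0.05, adjusted p = 8.1e-09), which ranked 242 of 19935 genes by size of change. It was the only member past 1.5-fold in any of the 3 comparisons, where 2.56%, 4.46% and 4.64% of all genes were both called and past that fold. In RNA from whole cultures, fewer cells that express a gene and less RNA per cell cannot be told apart.

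Macrophages and neutrophils are known sources of MMP-9, so their markers are given beside it. None of 8 neutrophil markers was called in any comparison by limma, and none had an unadjusted p under 0.05. Their list averaged 6.10 to 6.18 on Net shRNA, 6.05 to 6.12 on Sap-1 shRNA and 6.12 to 6.18 on control arrays. Of 10 macrophage markers, 3 rose in Net shRNA cells and none fell, beside 13.4% and 10.2% of all genes. In Sap-1 shRNA cells 2 rose and 2 fell, beside 15.8% and 13.9%. Of the 10, 1 lay above the median level of all genes. That list averaged 6.59 to 6.62, 6.59 to 6.63 and 6.45 to 6.47 on the arrays of the same groups. Lyz2, the gene of a lysozyme of myeloid cells, rose by 0.81 with the Net shRNA and by 1.81 with the Sap-1 shRNA, and Cd14, a lipopolysaccharide co-receptor gene, rose by 0.41 and by 0.21. Cd68, the gene of a lysosomal membrane protein, rose by 0.23 with the Net shRNA and fell by 0.23 with the Sap-1 shRNA, where Mpeg1 fell by 0.18. The pan-leukocyte gene Ptprc changed by -0.03 and -0.08, with a mean of 6.12 in control cells. These genes too were singled out after their values were seen. The part of such markers in the Mmp9 result was not tested.

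Mmp2 levels were 13.26, 13.32 and 13.30 on the Net shRNA arrays, 12.93, 12.92 and 12.91 on the Sap-1 shRNA arrays and 13.03, 13.03 and 13.06 on the control arrays. The groups again did not overlap and stood in the same order as for Mmp9. Mmp2 rose in Net shRNA cells by 0.25 (SE 0.04, 1.19-fold, limma adjusted p = 0.00046). In Sap-1 shRNA cells it fell by 0.12 (SE 0.04, adjusted p = 0.029), a call that was lost on leaving out any single array of either group (adjusted p = 0.051 to 0.082), on centring each array on its median (adjusted p = 0.07) and on taking off the median of the neighbouring genes (-0.08, adjusted p = 0.17). Between the shRNAs the difference was 0.38 (SE 0.04, 1.30-fold, adjusted p = 1.6e-05). The Mmp2 probe set lay near the top of the scale, where the highest value in the table was 14.47.

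**Figure D2:**
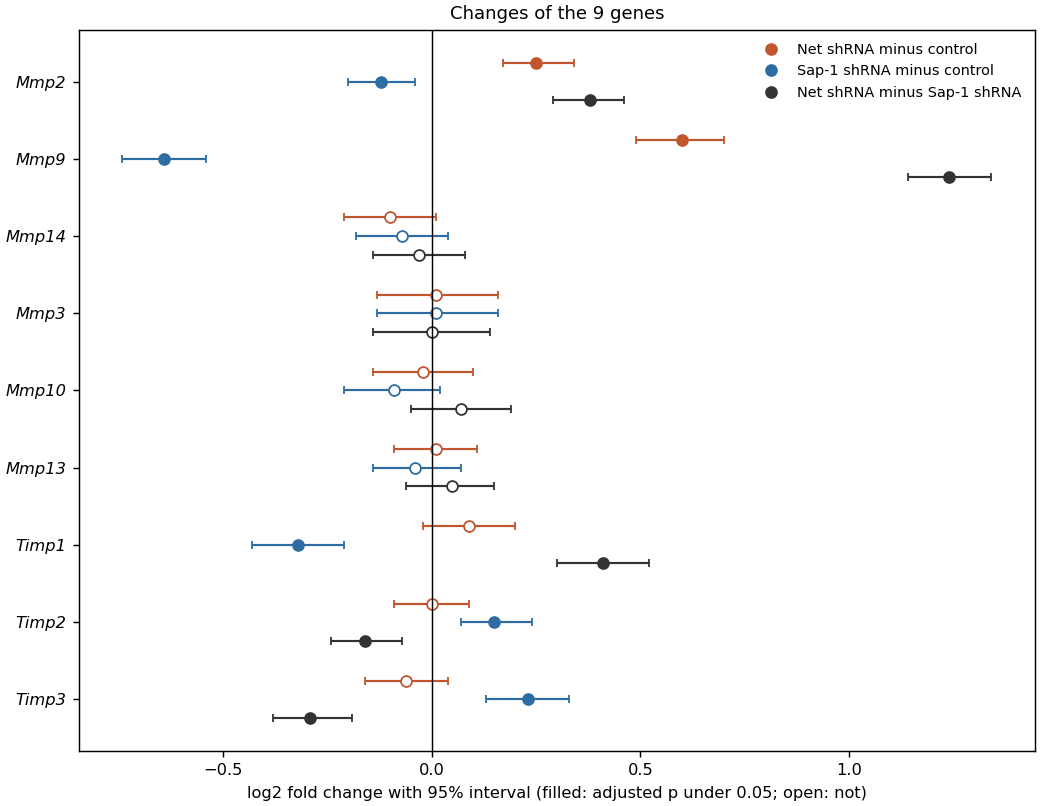
Log2 fold change (horizontal axis) of each of the 9 genes in 3 comparisons, with the 95% interval of the limma fit and filled points where the adjusted p was under 0.05. Mmp9 reaches 0.60 with the Net shRNA and -0.64 with the Sap-1 shRNA, while Mmp3, Mmp10, Mmp13 and Mmp14 have open points only.

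Mmp14 encodes MT1-MMP, the membrane-anchored enzyme that activates proMMP-2 and cuts fibrillar collagen. Its levels were 11.91, 12.09 and 12.03 on the Net shRNA arrays, 12.03, 12.04 and 12.05 on the Sap-1 shRNA arrays and 12.07, 12.11 and 12.16 on the control arrays. Net shRNA and control arrays overlapped, and the Sap-1 shRNA arrays lay just below the control arrays. The change was -0.10 in Net shRNA cells (interval -0.21 to 0.01, limma adjusted p = 0.20) and -0.07 in Sap-1 shRNA cells (interval -0.18 to 0.04, adjusted p = 0.35). The shRNA groups differed by -0.03 (interval -0.14 to 0.08, adjusted p = 0.73).

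The inducible genes of the chromosome 9 cluster stood low in every group. Mmp3 and Mmp10 encode stromelysins, and Mmp13 encodes the main interstitial collagenase of rodents. The levels of Mmp3 were 5.39, 5.47 and 5.38 on Net shRNA arrays, 5.50, 5.37 and 5.36 on Sap-1 shRNA arrays and 5.53, 5.28 and 5.39 on control arrays, so that all groups overlapped. Mmp10 ran from 6.54 to 6.68 on Net shRNA, 6.43 to 6.58 on Sap-1 shRNA and 6.58 to 6.66 on control arrays. Mmp13 ran from 6.39 to 6.46, from 6.34 to 6.46 and from 6.37 to 6.47 in the same groups. All 3 lay below the median of gene means, 7.81, and the table holds no detection calls, so neither presence nor absence can be read from these levels.

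Intervals for these 3 genes bound the changes that the arrays could have hidden. Mmp3 changed by 0.01 in each shRNA group relative to control (interval -0.13 to 0.16 in both, limma adjusted p = 0.92 with the Net shRNA and 0.90 with the Sap-1 shRNA). Mmp10 changed by -0.02 in Net shRNA (interval -0.14 to 0.10) and by -0.09 in Sap-1 shRNA cells (interval -0.21 to 0.02). Mmp13 changed by 0.01 (interval -0.09 to 0.11) and by -0.04 (interval -0.14 to 0.07). RMA compresses small differences of dim probe sets, and the intervals do not cover that. The other 7 MMP genes of the cluster, namely Mmp1a, Mmp1b, Mmp7, Mmp8, Mmp12, Mmp20 and Mmp27, were likewise not called. Of all 10 cluster genes 0 were called by limma in any of the 3 comparisons and 0 had an unadjusted p under 0.05. Their changes lay between -0.10 and 0.07, and their group means between 4.25 and 6.62. Mmp1a and Mmp1b are close copies whose probe sets may share signal, and cross-hybridisation between the stromelysin genes was not tested.

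The 3 TIMP genes did not move together. Timp1, the serum- and phorbol ester-inducible inhibitor gene, had levels of 12.70, 12.62 and 12.67 on the Net shRNA arrays, 12.33, 12.25 and 12.19 on the Sap-1 shRNA arrays and 12.54, 12.55 and 12.65 on the control arrays. Sap-1 shRNA arrays lay below all others, while Net shRNA and control arrays overlapped. It fell by 20% in Sap-1 shRNA cells (log2 change -0.32, SE 0.05, interval -0.43 to -0.21, limma adjusted p = 4e-04). The change in Net shRNA cells was 0.09 (interval -0.02 to 0.20, adjusted p = 0.24). Net shRNA cells had 1.33-fold more Timp1 mRNA than Sap-1 shRNA cells (log2 change 0.41, SE 0.05, adjusted p = 6.8e-05).

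Timp2, a mostly constitutive inhibitor gene, had levels of 12.69, 12.73 and 12.77 on the Net shRNA arrays, 12.91, 12.85 and 12.91 on the Sap-1 shRNA arrays and 12.71, 12.75 and 12.75 on the control arrays. Here the Sap-1 shRNA arrays were above all others, the reverse of Timp1. Timp2 rose by 0.15 in Sap-1 shRNA cells (SE 0.04, 1.11-fold, limma adjusted p = 0.013) and lay at 0.00 in Net shRNA cells (interval -0.09 to 0.09, adjusted p = 0.98). Net shRNA cells were lower than Sap-1 shRNA cells, at -0.16 (SE 0.04, adjusted p = 0.012).

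Timp3 encodes the inhibitor that is held in the matrix and also blocks several ADAM and ADAMTS enzymes. Its levels were 13.38, 13.41 and 13.44 on the Net shRNA arrays, 13.66, 13.67 and 13.76 on the Sap-1 shRNA arrays and 13.43, 13.46 and 13.52 on the control arrays. The Sap-1 shRNA arrays again lay above all others. Timp3, with levels above those of Mmp2, also lay near the top of the scale, where the highest value was 14.47. Timp3 rose by 0.23 in Sap-1 shRNA cells (SE 0.04, 1.17-fold, limma adjusted p = 0.0022) and changed by -0.06 in Net shRNA cells (interval -0.16 to 0.04, adjusted p = 0.44). Net shRNA cells were lower than Sap-1 shRNA cells, at -0.29 (SE 0.04, adjusted p = 5e-04). Counted without a threshold, Net shRNA and control arrays did not overlap for 2 of the 9 members, where 34.3% of all genes did not. Sap-1 shRNA and control arrays did not overlap for 6, against 41%, and arrays of both shRNAs for 5, against 37.4%. All of these members lie above the median level, where the share without overlap was not counted. The comparisons share arrays, so their values for a gene are not independent of each other.

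The rest of the family was a list of 17 measured genes of 18, mostly at low levels, with 2 above the median level of all genes. In Net shRNA cells none rose, 2 fell (1 without control replicate 2, and 5 called after quantile normalization) and 15 were not called, beside 13.4% of all genes higher and 10.2% lower. In Sap-1 shRNA cells 3 rose and 1 fell, beside 15.8% and 13.9%. Between the shRNAs 1 was higher and 3 lower in Net shRNA cells, beside 14.2% and 13.3%. The median change of the list was -0.06, -0.02 and 0.01 in the 3 comparisons, where that of all genes was 0.00, -0.02 and 0.02.

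Mmp11 and Mmp16 had the opposite signs of Mmp9 in both knockdowns. Mmp11 encodes stromelysin-3, which is activated inside the cell by furin. It stood at 9.35, 9.27 and 9.21 on the Net shRNA arrays, 10.58, 10.53 and 10.56 on the Sap-1 shRNA arrays and 9.84, 9.90 and 9.96 on the control arrays, with no overlap. It fell by 0.62 in Net shRNA cells (SE 0.05, limma adjusted p = 5.2e-06) and rose by 0.65 in Sap-1 shRNA cells (SE 0.05, adjusted p = 1.8e-06). Mmp16, the gene of the membrane-type enzyme MT3-MMP, stood at 6.58, 6.82 and 6.91, at 8.21, 8.17 and 8.35, and at 6.99, 7.14 and 7.01 on the arrays of the same groups. It rose by 1.19 in Sap-1 shRNA cells (SE 0.08, adjusted p = 9.4e-07) and fell by 0.28 in Net shRNA cells (adjusted p = 0.027). That fall was not called when only the 6 arrays compared were fitted (adjusted p = 0.059), under cyclic loess normalization (adjusted p = 0.056), or without Net shRNA replicate 1 (-0.18, adjusted p = 0.073), control replicate 2 (-0.23, adjusted p = 0.11) or control replicate 3 (adjusted p = 0.056).

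Mmp19 and Mmp28 differed from control in Sap-1 shRNA cells. Mmp19, the gene of a widely expressed soluble enzyme, fell by 0.66 there (SE 0.06, limma adjusted p = 1.3e-05), with 9.38 on each of the 3 Sap-1 shRNA arrays and 9.89 to 10.15 on control arrays. Mmp28, the epilysin gene, rose by 0.56 (SE 0.07, adjusted p = 9.5e-05), with 8.05 to 8.18 on Sap-1 shRNA arrays and 7.49 to 7.60 on control arrays. In Net shRNA cells Mmp19 lay at -0.17 (adjusted p = 0.075) and Mmp28 at -0.16 (adjusted p = 0.14). Mmp19 was called there under quantile normalization (-0.20, adjusted p = 0.017), cyclic loess (-0.19, adjusted p = 0.021), the replicate block (adjusted p = 0.039), the filter on level (adjusted p = 0.038) and without control replicate 1 (-0.25, adjusted p = 0.0059). Mmp28 was called there at -0.22 after subtracting the median of its neighbour genes (adjusted p = 0.038) and at -0.22 without Net shRNA replicate 1 (adjusted p = 0.05 after rounding).

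**Figure D3:**
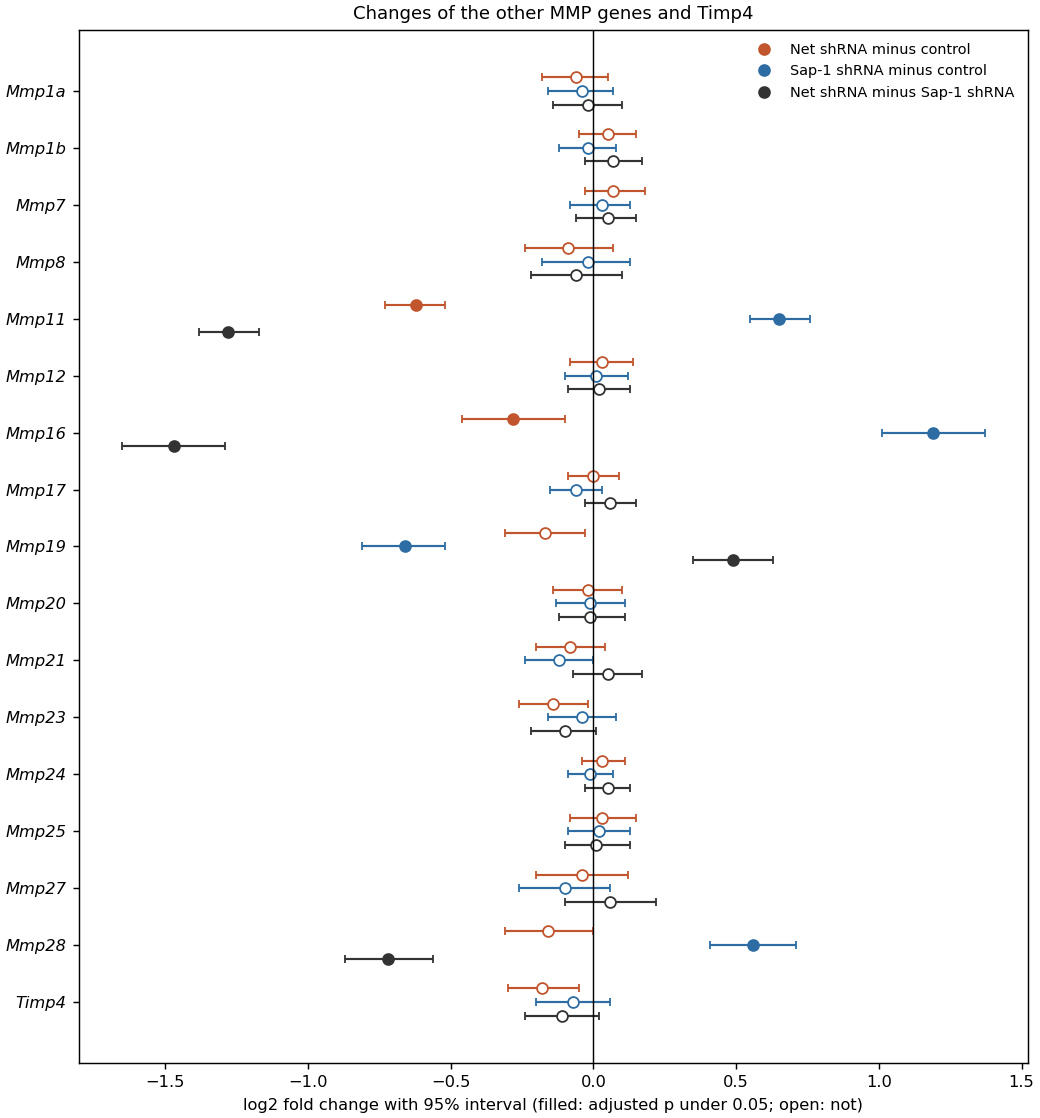
Log2 fold change (horizontal axis) with 95% interval of the other MMP genes and Timp4 in 3 comparisons, filled where the adjusted p was under 0.05. Mmp11 and Mmp16 lie below 0 in Net shRNA and above 0 in Sap-1 shRNA cells, and most other genes stay near 0.

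The related ADAM and ADAMTS proteases, which shed membrane proteins and cut proteoglycans, had 28 measured genes of 29. In Net shRNA cells 5 rose and 7 fell, and in Sap-1 shRNA cells 5 rose and 9 fell. The median change was 0.00 and -0.07. Of the 28 genes 20 lay above the median level, where 40.6% and 49.2% of all genes were called. Adam23, the gene of a catalytically inactive family member, fell by 2.28 in Sap-1 shRNA (SE 0.05) and by 0.76 in Net shRNA cells (SE 0.05, limma adjusted p = 2.2e-10 and 2e-06). Adamts9, the gene of a proteoglycan-cutting enzyme, fell by 1.82 in Sap-1 shRNA (SE 0.11) and by 0.50 in Net shRNA cells (SE 0.11). Adamtsl1 rose by 1.43 with the Net shRNA and 0.78 with the Sap-1 shRNA, and Adamtsl4 by 0.73 and 0.21, its rise in Sap-1 shRNA cells reaching an adjusted p of 0.05 without control replicate 1. The Adamtsl genes encode matrix proteins of the same family without a protease domain.

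Activators, receptors and membrane regulators of MMPs were a list of 31 measured genes of 33. In Net shRNA cells 3 rose and 6 fell, and in Sap-1 shRNA cells 5 rose and 8 fell, with medians of -0.01 and -0.05. Over all genes 13.4% rose and 10.2% fell in Net shRNA cells, and 15.8% rose and 13.9% fell in Sap-1 shRNA cells. Of the 31 genes 19 lay above the median level, where 40.6% and 49.2% of all genes were called. With only the 6 arrays compared, and also without Net shRNA replicate 3, 5 were called in Net shRNA cells. Reck, the gene of a membrane-anchored protein that inhibits MMP-2, MMP-9 and MMP-14, had levels of 10.18, 10.23 and 10.20 on Net shRNA, 9.43, 9.40 and 9.50 on Sap-1 shRNA and 10.43, 10.42 and 10.53 on control arrays. No groups overlapped. Reck fell by 1.02 in Sap-1 shRNA cells (limma, SE 0.04, adjusted p = 2.8e-08) and by 0.26 in Net shRNA cells (SE 0.04, adjusted p = 0.0015). Furin, which encodes the proprotein convertase that activates MMP-14 and MMP-11, fell by 0.34 in Sap-1 shRNA cells (SE 0.04, adjusted p = 8e-05) and by 0.13 in Net shRNA cells (adjusted p = 0.041). The fall of Furin in Net shRNA cells was not called without control replicate 2 or 3 or Net shRNA replicate 1 or 3 (adjusted p = 0.08 to 0.14), with only the 6 arrays compared (adjusted p = 0.061) or after subtracting the median of its neighbour genes (adjusted p = 0.058).

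Ctsk, the gene of the collagen-cutting cysteine protease cathepsin K, fell by 2.53 in Sap-1 shRNA cells (limma, SE 0.05, adjusted p = 1.3e-10). Its levels there were 6.07, 6.08 and 6.16, against 8.55, 8.69 and 8.66 in control cells, and the change in Net shRNA cells was 0.03 (adjusted p = 0.82). Thbs2, the gene of thrombospondin-2, which binds MMP-2 and carries it to the scavenger receptor LRP1, fell by 0.72 with the Net shRNA and 1.12 with the Sap-1 shRNA (SE 0.04 each).

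Matrix proteins that MMPs cut were represented by 27 measured genes of 29. In Net shRNA cells 5 rose and 7 fell, and in Sap-1 shRNA cells 3 rose and 11 fell, with medians of 0.03 and -0.10. In this list 25 genes lay above the median level, where 40.6% and 49.2% of all genes were called. Postn (periostin) fell by 2.58 in Sap-1 shRNA cells (SE 0.06) and lay at -0.08 in Net shRNA cells (limma adjusted p = 0.39). Nid2, a basement membrane nidogen gene, fell by 1.04 in Sap-1 shRNA cells (SE 0.06) and lay at 0.09 in Net shRNA cells (adjusted p = 0.36). The proteoglycan gene Dcn fell by 0.66 in Sap-1 shRNA and 0.24 in Net shRNA cells (SE 0.04 each). Lama2, a laminin chain gene, fell by 2.59 in Net shRNA cells and also fell by 1.55 in Sap-1 shRNA cells (SE 0.07 each). Other genes of the list went up. Col4a1 rose by 0.80 with the Net shRNA and 0.58 with the Sap-1 shRNA, and Col4a2 by 0.66 and 0.45. Tnc rose by 0.59 with the Net shRNA and 0.99 with the Sap-1 shRNA. Lama4 rose by 1.34 with the Net shRNA but fell by 0.81 with the Sap-1 shRNA.

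**Figure D4:**
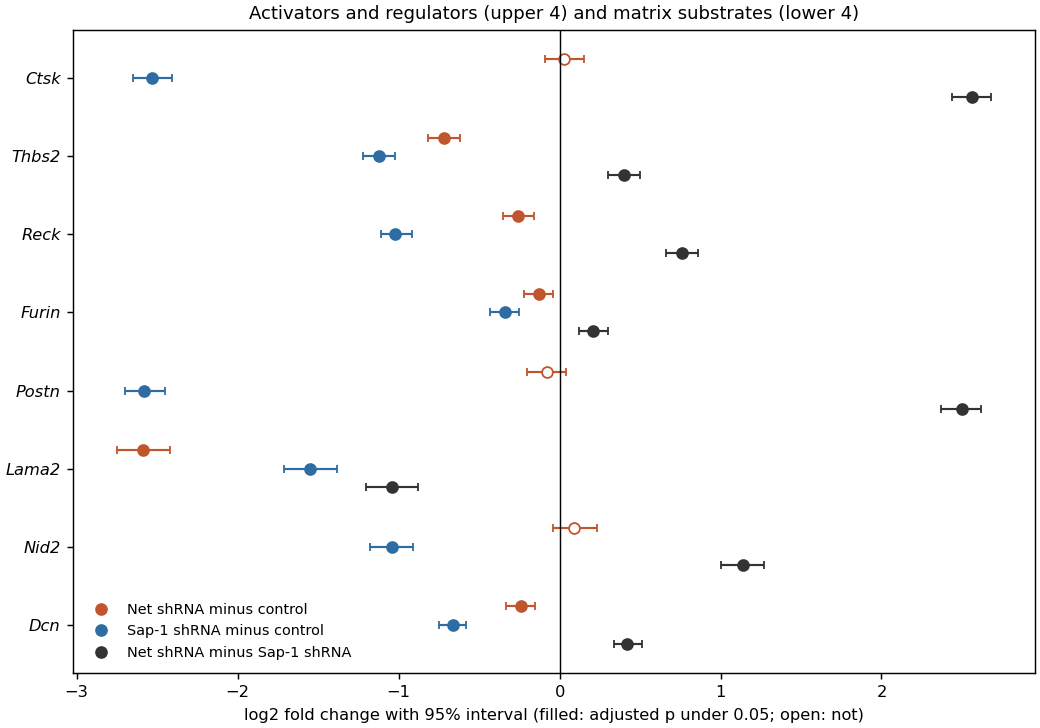
Log2 fold change (horizontal axis) with 95% interval of 4 genes from the list of activators and regulators and 4 from the list of substrates, filled where the adjusted p was under 0.05. All 8 genes fell in Sap-1 shRNA cells, Reck by 1.02, and Ctsk, Postn and Nid2 have open points for Net shRNA. The 8 were picked by smallest adjusted p, and 5 other regulators and 3 other substrates rose in Sap-1 shRNA cells.

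Of the transcription factors known to act on MMP promoters, 22 of 24 were measured, and 11 fell and 3 rose in Sap-1 shRNA cells, beside 13.9% and 15.8% of all genes. All 22 lay above the median level of genes. There 49.2% of genes were called in either direction in Sap-1 shRNA cells and 40.6% in Net shRNA cells. Under the Net shRNA 7 fell and 4 rose, beside 10.2% and 13.4% of all genes. The list holds Elk3 and Elk4, which both count among the falls in each comparison. The fall of each under its own shRNA was set by the design. Elk4, described above, led the list. Stat3, the gene of a cytokine-activated factor, fell by 0.61 in Sap-1 shRNA cells (limma, SE 0.05, adjusted p = 2e-06). Its rise of 0.16 in Net shRNA cells (adjusted p = 0.029) was 0.05 (adjusted p = 0.57) once the median of its neighbour genes was subtracted and was not called with each array centred on its median (adjusted p = 0.069) or on leaving out any array of either group except Net shRNA replicate 3 (adjusted p = 0.05 to 0.11). Tcf7l2, a Wnt pathway factor gene, fell by 0.50 in Sap-1 shRNA cells (SE 0.04). Fosb, an AP-1 subunit gene, fell by 0.37 with the Net shRNA and 0.47 with the Sap-1 shRNA (SE 0.04 each).

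Cytokine and growth factor genes known to induce MMPs had 19 measured genes of 20, with 4 higher and 3 lower in Net shRNA and 2 higher and 5 lower in Sap-1 shRNA cells. The shares called were 23.6% and 29.7% over all genes, and 40.6% and 49.2% above the median level, where 13 of the 19 lay. Tgfb2, a transforming growth factor gene, had the same pattern of signs as Mmp9. Its levels were 10.05, 10.25 and 10.21 on Net shRNA, 8.03, 8.14 and 8.24 on Sap-1 shRNA and 9.14, 9.17 and 9.20 on control arrays. It rose by 1.00 in Net shRNA and fell by 1.04 in Sap-1 shRNA cells (SE 0.06 each, limma adjusted p = 1.3e-06 and 4.9e-07). Lif, a cytokine gene, rose by 1.19 with the Net shRNA and 0.30 with the Sap-1 shRNA. The hepatocyte growth factor gene Hgf fell by 2.22 in Sap-1 shRNA and 0.32 in Net shRNA cells, and Tgfb3 fell by 0.45 in Sap-1 shRNA cells.

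Genes with the most similar pattern were sought for the 3 members with the widest range of group means, among the 512 genes (511 for Mmp9) whose group means span at least 1 log2 unit, by Pearson's r over the 9 arrays. These arrays fall into 3 groups, so r largely reflects 3 group means and is given as a description. For Mmp9 they were the sphingosine phosphate receptor gene S1pr1 (r = 0.995), the chemokine gene Ccl7 (0.995), the Wnt modulator gene Sfrp2 (0.993) and Lmcd1 (0.991). S1pr1 averaged 9.98 in Net shRNA, 8.37 in Sap-1 shRNA and 9.16 in control cells. For Timp1 they were Mycn (0.984), Brinp3 (0.978), Egr4 (0.978) and Arc (0.976), the last being a serum-inducible gene that averaged 11.24, 9.86 and 10.84. For Mmp2 they were Tcaf2 (0.997), the hyaluronan synthase gene Has2 (0.995), the interleukin-4 receptor gene Il4ra (0.994) and Gas6 (0.994), a receptor ligand gene that averaged 11.37, 9.65 and 10.10.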

How the data were processed

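Expression was measured on 9 Affymetrix Mouse Gene 1.0 ST arrays, 3 in each of 3 groups. Per the submitters' processing notes, the authors ran RMA using Affymetrix Expression Console (version not given in the sources used here), and the deposited values are log2 levels per probe set. RMA quantile-normalizes probe intensities across arrays, so changes are relative to the other genes. The arrays had medians of 7.47 to 7.54, and their number limits the precision.

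Of 28815 probe sets, 21780 name a single gene symbol, 1605 several and 5430 none. Symbols were updated through the Entrez identifier for 21689. Where a gene had more than 1 probe set (998 of 19935 genes), the one with the highest mean was kept. One limma model (3.58.1, R 4.3.3) was fitted over all 9 arrays, and p-values were adjusted by Benjamini-Hochberg over 19935 genes. The code was also run on simulated data with independent noise and far fewer changed genes than were called here. That run concerns the code only and says nothing of the error rates in these data.

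The members, the gene lists and their settings were chosen with earlier results of these data known. From each list up to 4 genes called against control with the smallest adjusted p are named, plus Elk3 and Elk4. Col4a1, Col4a2, Tnc and Lama4 were added after their values were seen. Promoter windows come from RefSeq GRCm38.p6, whose coordinates are not those of the array design. Alternatives were the replicate number as a block, intensity-dependent variance, only the 6 arrays compared, other scalings, a filter on level, other probe set rules, a fold threshold, the median of 50 neighbouring genes taken off and each array left out. Scan batches are not given in the sources used here. Same-numbered arrays did not deviate together in every pair (r = -0.11 to 0.36), but the pairs of replicate 1 were all positive (0.166, 0.255 and 0.36). No source used here says that the numbers mark a shared batch. The numbers were therefore not taken to pair the samples, and the block is given as an alternative.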

Additional observations from a re-analysis of the deposited data

How the results depend on the processing

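Over the alternatives, Mmp9, Timp1 and Timp3 kept the direction and side of the threshold reported for every comparison, as did Timp2 and Mmp2 except where given here or beside the result, the 1.5-fold threshold aside. With at least 1.5-fold required, 1 member was called in each comparison, and 510, 890 and 924 genes in all for Net shRNA against control, Sap-1 shRNA against control and Net shRNA against Sap-1 shRNA cells. With the replicate number as a block, the members called were 2, 5 and 5, and all genes called 4985, 6263 and 5752. Different-numbered arrays had deviations correlated at -0.432 to 0.303. Leaving out each array in turn gave 2, 4 and 5 members, and 3848 to 4429, 5043 to 5258 and 4770 to 5090 genes in the same comparisons. Signs turned only for genes that were not called, and the cause was not tested. In Net shRNA against control, Mmp3 was -0.01 with arrays centred on their median and -0.05 to 0.08 with an array left out, and Mmp13 was -0.01 with centring, 0.00 with the neighbours' median taken off and -0.01 to 0.04 with an array left out. Timp2 was 0.01 after quantile normalization and after cyclic loess and -0.02 to 0.02 with an array left out, and Mmp10 was -0.06 to 0.01. Ctsk was -0.02 after quantile normalization, -0.04 with the neighbours' median taken off and -0.02 to 0.07 with an array left out. With an array left out, Mmp3 was -0.05 to 0.08 in Sap-1 shRNA against control, and Mmp3 was -0.03 to 0.05 and Mmp14 -0.07 to 0.02 in Net shRNA against Sap-1 shRNA cells. The level filter left Mmp3, Mmp10 and Mmp13 untested. Settings for the lists and the genes named from them were added after seeing the data. Among the other MMP genes the count in Net shRNA cells was 1 with only the 6 arrays compared, 4 with centring and 5 after quantile normalization, and the filter on level left 2 in Sap-1 shRNA cells. Dim probe sets limit what can be said of the chromosome 9 genes.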
